A study of Homo sapiens with 6 samples.

Results

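The GADD45 genes (growth arrest and DNA damage inducible) were examined in 6 bulk RNA-seq libraries of irradiated HK-2 cells. The family comprises GADD45A, GADD45B and GADD45G. It was picked from these data because GADD45A was among the genes with lower values in PRDM16-overexpressing cells, so its members were chosen by the comparison described here. The members were the entries with these 3 gene names among the 38648 genes and gene copies listed, and each name was listed once. HK-2 is an established line of human proximal tubular cells, immortalized with papillomavirus E7 and with E6, a protein known to target p53 for degradation. Both groups, here IR+NC-LV (the controls) and IR+PR-LV, carried a lentivirus, were kept under puromycin to remove cells without it, received a single X-ray dose of 8 Gy and were harvested at day 7. The IR+NC-LV group carried a negative control lentivirus (n = 3), and the IR+PR-LV group a lentivirus that overexpresses PRDM16, a zinc finger transcriptional regulator (n = 3). Cells without irradiation or without lentivirus were not analysed here, so the values describe irradiated cells with and without added PRDM16, not a response to radiation. Nothing in the labels says that the 3 samples of a group came from separate cultures, and p-values then measure only the spread between these samples, which may be technical.

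GADD45 proteins are small acidic proteins without enzyme activity of their own, and they act by binding others. They bind PCNA, the sliding clamp of replication and repair, the cell cycle inhibitor p21, and the mitotic kinase CDK1 with cyclin B1. They also bind and activate MAP3K4, a kinase above the p38 and JNK stress kinases, and they have been tied to excision repair and to the removal of DNA methylation. GADD45A is a target of p53 and of stress pathways that do not need p53. GADD45B, first described as MyD118, is induced by NF-kB and TGF-beta. GADD45G, first described as CR6, is induced by cytokines. In the kidney tubule, genes of this family are known to be induced by toxic injury.

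The total count per library was between 13407074 and 28540041, and IR+NC-LV replicate 3 had the smallest total and the largest TMM factor (1.04). The overexpressed gene, PRDM16, had counts of 2, 0 and 1 in the controls, against 14, 10 and 8 in the IR+PR-LV libraries, higher in each of the latter than in any control but low throughout. Levels are given as CPM, the count scaled to the library total with edgeR's TMM factors. In the shallowest library, a count of 0 allowed a level of up to 0.224 CPM before the TMM factor. Of the epithelial markers, the keratins were abundant, with KRT8 at 550 CPM in the controls, against 598 CPM in the IR+PR-LV libraries. EPCAM had 23.3 and 27.3 CPM, and CDH1 was low (0.501 and 0.749 CPM). Of the tubular markers GGT1 was present (65.9 and 59.5 CPM), AQP1 (2.33 and 2.57 CPM) and CUBN (1.37 and 1.05 CPM) were low, SLC34A1 and SLC5A2 were under 1 CPM, and LRP2, SLC22A6, ANPEP and HNF4A were each below 0.2 CPM in both groups. Endothelial markers summed to between 0.714 and 1.31 CPM per library. Fibroblast markers summed to between 115 and 124 CPM in the controls, against 103 to 138 CPM in the IR+PR-LV libraries, mostly from LUM (98.4 and 102 CPM) and COL1A1 (19.0 and 19.2 CPM). Of the leukocyte markers PTPRC, CD3E and MS4A1 were at or near 0, and CD68, which other cells also express, had 99.3 and 85.3 CPM. Of the markers, 5 epithelial, 5 tubular, 4 fibroblast, 1 leukocyte and 0 endothelial ones were tested. Before adjustment 2 of these marker genes were under 0.05 by edgeR, beside 10.5% of all genes tested. They were CD68 (log2 fold change -0.22) and the epithelial EPCAM (0.22). After adjustment 0 were past the threshold. The part of these cell type markers in the results was not tested.

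GADD45A lies at chr1:67685201-67688334 on the plus strand (GRCh38), with 1352 exon bases in 4 exons. GADD45B lies at chr19:2476127-2478259 on the plus strand, with 1609 exon bases merged into 3 exons. GADD45G lies at chr9:89605009-89606555 on the plus strand, with 1069 exon bases in 4 exons. No exon base of a member was shared with another listed gene. Exon 2 had 102 bases in each member and was coding throughout. It is shown because it allows the 3 genes to be compared base by base, which bears on how well reads can be told apart. Capitals mark the bases that are identical in all 3 members. The sequences are from GENCODE release 29 transcripts, whose coordinates for this exon match those in the files, written 5′ to 3′ from chr1:67686025-67686126, chr19:2476529-2476630 and chr9:89605432-89605533.
GADD45A: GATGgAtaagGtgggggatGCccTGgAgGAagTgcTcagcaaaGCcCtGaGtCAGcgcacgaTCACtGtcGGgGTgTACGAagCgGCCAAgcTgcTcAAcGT
GADD45B: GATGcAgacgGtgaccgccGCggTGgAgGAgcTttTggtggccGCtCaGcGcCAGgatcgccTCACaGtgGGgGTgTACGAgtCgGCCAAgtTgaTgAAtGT
GADD45G: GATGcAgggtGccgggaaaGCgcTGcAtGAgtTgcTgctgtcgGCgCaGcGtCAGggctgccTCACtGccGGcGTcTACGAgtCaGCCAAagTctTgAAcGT
Of the 102 bases, 49 (48.0%) were shared by all members. Pairwise identity in this exon was 60.8% for GADD45A with GADD45B, 60.8% for GADD45A with GADD45G and 64.7% for GADD45B with GADD45G. Over the whole coding sequences of 495, 480 and 477 bases, the identities were 63.1%, 65.3% and 68.5% in the same order. The longest run of identical bases that any pair of transcripts shared was 18 bases (GADD45A and GADD45G), so no longer stretch of one member occurred in another.

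GADD45A was the most abundant member. Its counts were 3918, 4246 and 3935 in control replicates 1, 2 and 3, against 2004, 3341 and 2125 in IR+PR-LV replicates 1, 2 and 3. After normalization these were 233, 201 and 283 CPM in the controls, against 119, 119 and 115 CPM in the IR+PR-LV libraries. All 3 IR+PR-LV libraries were below all 3 IR+NC-LV libraries, and the lowest control library was 1.69 times as high as the highest IR+PR-LV library. The mean was 239 ± 41.0 CPM (SD, n = 3) in the controls, against 118 ± 2.26 CPM (SD, n = 3) in the IR+PR-LV libraries. GADD45A fell by 1.02 on the log2 scale (standard error 0.11), to 49.4% of the control level. By edgeR's quasi-likelihood test, where an adjusted p-value below 0.05 counted as a call, it was among the 7 of 15340 tested genes past the threshold with lower values in IR+PR-LV (0.0456% of those tested). This comparison chose the family, so the fold change of GADD45A is a description and no p-value is given for it. The call was lost, at nearly the same fold change, when 1 library was left out: without IR+NC-LV replicate 1 (-1.04), IR+PR-LV replicate 1 (-1.02), IR+PR-LV replicate 2 (-1.03) or IR+PR-LV replicate 3 (-1.002). RNA was taken from whole cultures, in which fewer cells with a transcript and less RNA per cell cannot be told apart.

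GADD45B stood between the others in level and had the smallest difference. Its counts were 1146, 1334 and 1142 in the controls, against 888, 1250 and 837 in the IR+PR-LV libraries. In CPM, they were 68.2, 63.3 and 82.0 in the controls, against 52.8, 44.6 and 45.4 in the IR+PR-LV libraries. The groups did not overlap, but the gap was narrower than for GADD45A, with the lowest control library 1.198 times as high as the highest IR+PR-LV library. The mean was 71.2 ± 9.74 CPM (SD, n = 3) in the controls, against 47.6 ± 4.51 CPM (SD, n = 3) in the IR+PR-LV libraries. The log2 fold change was -0.58 (standard error 0.11), a level 66.9% of the control, and it did not pass the threshold. It passed under 2 of the 13 other settings, namely with DESeq2 (-0.58) and without a filter on low counts (-0.57).

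GADD45G was scarce. Its counts were 106, 123 and 120 in the controls, against 48, 76 and 61 in the IR+PR-LV libraries. They gave 6.31, 5.83 and 8.62 CPM in the controls, against 2.85, 2.71 and 3.31 CPM in the IR+PR-LV libraries. Again every IR+PR-LV library was below every IR+NC-LV library, with a ratio of 1.76 between the nearest libraries of the groups. The exact 95% Poisson interval, which covers counting error only, was 4.85 to 6.96 CPM in the lowest control library and 2.53 to 4.25 CPM in the highest IR+PR-LV library. The mean was 6.92 ± 1.49 CPM (SD, n = 3) in the controls, against 2.96 ± 0.312 CPM (SD, n = 3) in the IR+PR-LV libraries. The log2 fold change of -1.22 (standard error 0.19) placed IR+PR-LV at 42.9% of the control. GADD45G had the log2 fold change farthest from 0 of the members and the largest standard error, and it did not pass the threshold. It passed under the same 2 settings as GADD45B, with -1.22 for DESeq2 and -1.21 without a filter.

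**Figure D1:**
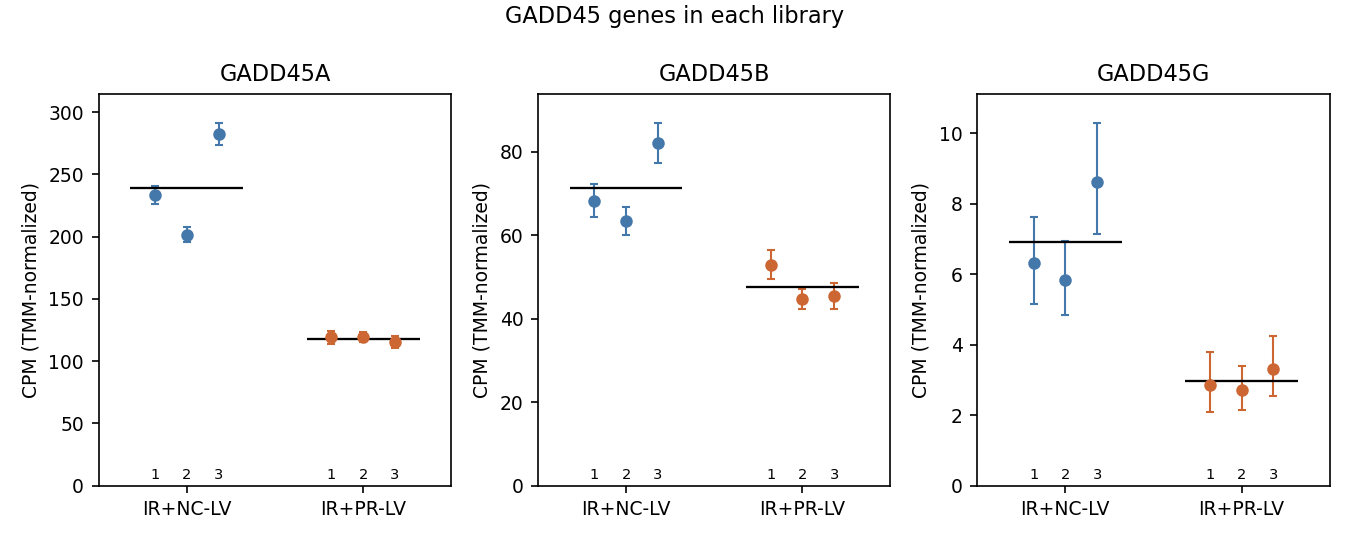
GADD45A, GADD45B and GADD45G in each library, in TMM-normalized CPM on axes that start at 0. Points are libraries numbered by replicate, bars are exact 95% Poisson intervals for counting error, and lines are group means (n = 3); for each gene the 3 IR+PR-LV points lie below the 3 IR+NC-LV points.

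All 3 members passed the filter on low counts, 1 passed the threshold, and all 3 had groups that did not overlap. Of the 15340 genes tested, 0.0652% passed the threshold in either direction. Every IR+PR-LV library lay below every IR+NC-LV library for 9.54% of them. Since the same comparison chose the family, nothing was read from these counts. For scale, the median log2 fold change of all genes tested was 0.00. A log2 fold change at or below that of the member was found in 0.632% of tested genes for GADD45A, 2.77% for GADD45B and 0.359% for GADD45G.

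The control libraries were spread in the same order in all members. IR+NC-LV replicate 3 was the highest and IR+NC-LV replicate 2 the lowest of the controls for GADD45A, GADD45B and GADD45G. How many of all tested genes had this order was not counted, so it is not shown to be particular to the members. On the log2 scale, replicate 3 stood above its group mean by 0.26, 0.21 and 0.33 for the 3 genes in this order. The IR+PR-LV libraries had no common order, with the highest value in replicate 2 for GADD45A, replicate 1 for GADD45B and replicate 3 for GADD45G. The coefficient of variation of GADD45A was 17.1% in the controls, against 1.92% in the IR+PR-LV libraries, where counting alone gives 1.57% and 2.004%. With 3 libraries a group, these coefficients are themselves imprecise. For GADD45B the coefficients of variation were 13.7% and 9.47%, each above the 2.88% and 3.18% from counting. For GADD45G they were 21.6% and 10.5%, and the value in IR+PR-LV was below the 12.7% from counting. Without IR+NC-LV replicate 3, the log2 fold change was -0.88 for GADD45A, -0.46 for GADD45B and -1.04 for GADD45G. Without IR+NC-LV replicate 2 it was -1.13, -0.66 and -1.34. The values of the members thus moved together with the choice of control library, and stayed below 0 under each of the 13 other settings. The part of the small total of IR+NC-LV replicate 3 in its high values was not tested.

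**Figure D2:**
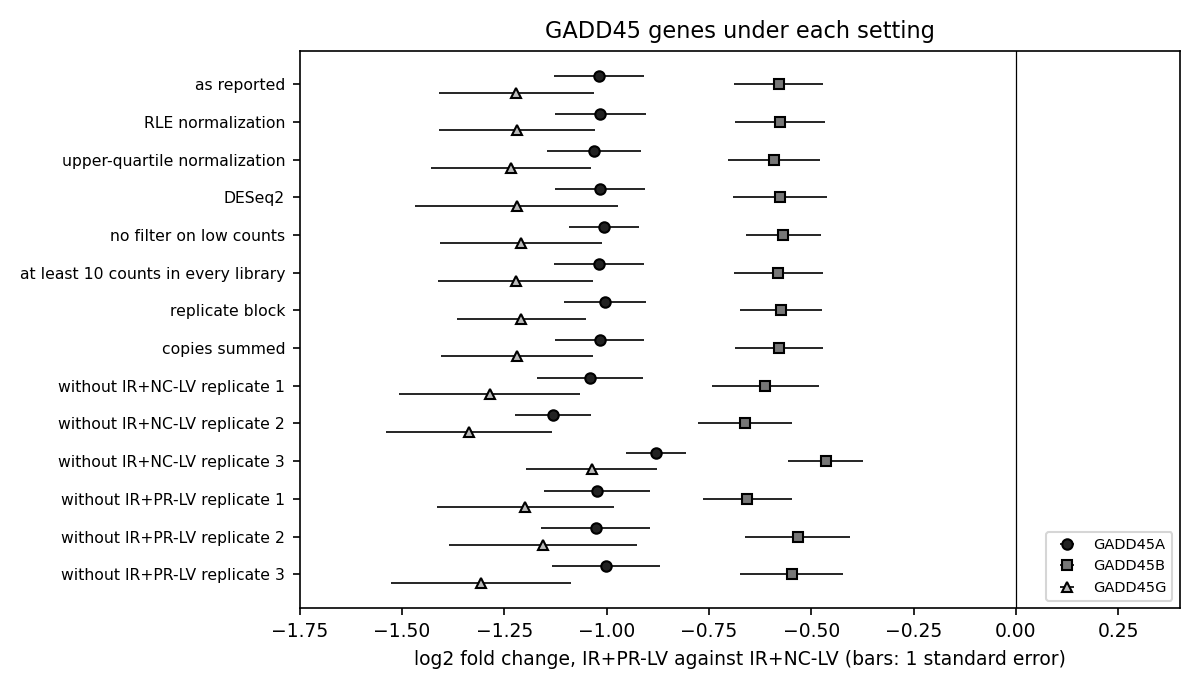
Log2 fold change of GADD45A, GADD45B and GADD45G in IR+PR-LV against IR+NC-LV as reported and under 13 other settings of normalization, test, filter, block and libraries, with bars of 1 standard error. All values lie left of 0, and the rows without IR+NC-LV replicate 2 and replicate 3 hold the lowest and highest value of each gene.

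Levels were compared between members per length, as the deposited TPM, which scales the count by exon length. GADD45A had 562, 476 and 730 TPM in the controls, against 284, 281 and 278 TPM in the IR+PR-LV libraries. It ranked between 157 and 299 among the genes with any count in the control libraries, and between 589 and 615 in the IR+PR-LV libraries. GADD45B had 138, 126 and 178 TPM in the controls, against 106, 88.5 and 92.1 TPM in the IR+PR-LV libraries, with ranks of 1030 to 1579 and 1898 to 2300. GADD45A in IR+PR-LV was thus still above GADD45B in any control library. GADD45G had 19.2, 17.4 and 28.2 TPM in the controls, against 8.59, 8.10 and 10.1 TPM in the IR+PR-LV libraries, with ranks of 6030 to 7347 and 9014 to 9540.

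The order GADD45A, GADD45B, GADD45G held in 6 of 6 libraries, and neighbours in this order differed by more than their spread. GADD45A exceeded GADD45B by 1.78 ± 0.25 in log2 TPM (SD over 6 libraries, range 1.43 to 2.04). GADD45B exceeded GADD45G by 3.10 ± 0.38 (range 2.66 to 3.62). GADD45A exceeded GADD45G by 4.88 ± 0.17 (range 4.70 to 5.12). In a 2-sided exact permutation test with sign flips over the 6 libraries, p was 0.03125 for each of the 3 pairs. Benjamini-Hochberg adjustment over the pairs left it the same, and this is the smallest p that 6 libraries allow. Whenever the order is the same in all 6 libraries the test returns this value, so it only restates the order. The libraries of both groups were pooled in it.

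The family total was 719, 619 and 936 TPM in the controls, against 398, 378 and 381 TPM in the IR+PR-LV libraries. GADD45A made up 78.1%, 76.9% and 78.0% of it in the controls, against 71.3%, 74.5% and 73.1% in the IR+PR-LV libraries. The share of GADD45B was 19.2%, 20.3% and 19.0% in the controls, against 26.5%, 23.4% and 24.2% in the IR+PR-LV libraries. The shares of GADD45A and GADD45B did not overlap between the groups, with that of GADD45A lower and that of GADD45B higher in IR+PR-LV. GADD45G made up 2.67%, 2.82% and 3.01% in the controls, against 2.16%, 2.14% and 2.66% in the IR+PR-LV libraries, so its nearest libraries almost met. The ratio of GADD45A to GADD45B was 4.07, 3.79 and 4.10 in the controls, against 2.69, 3.18 and 3.02 in the IR+PR-LV libraries. This ratio varied far less among the control libraries than the levels did. The shares come from the comparison that chose the family and were not tested.

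**Figure D3:**
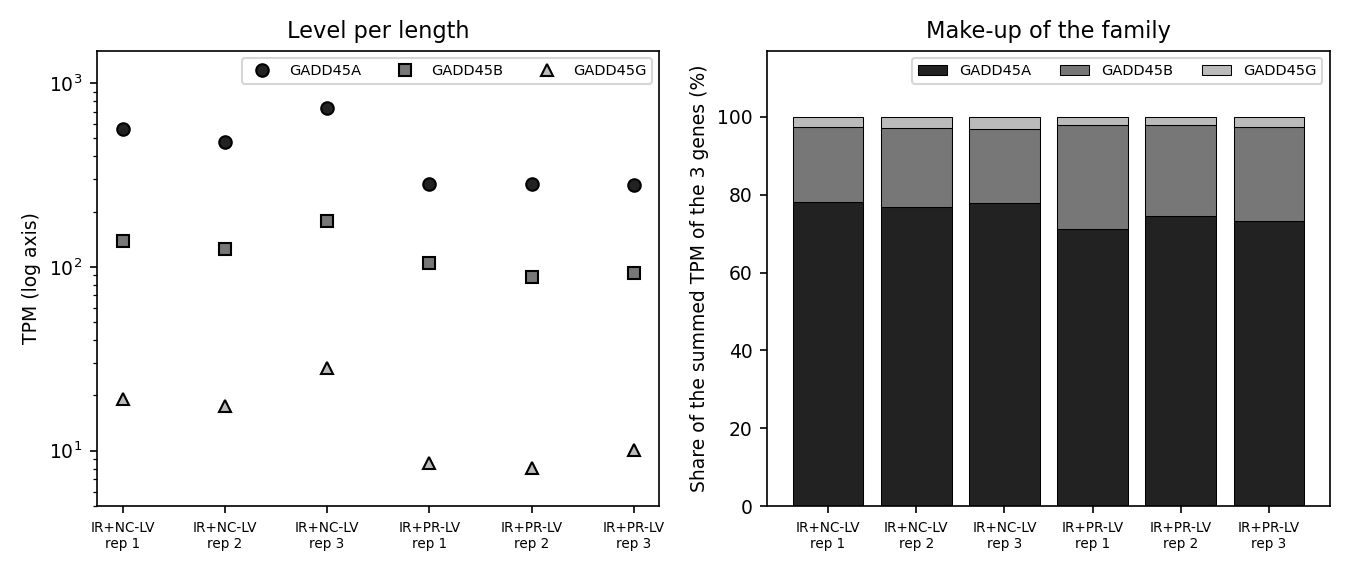
Left, TPM of GADD45A, GADD45B and GADD45G in each library on a log axis. Right, share of each gene in the summed TPM of the family, in percent; GADD45A was the largest part in all 6 libraries, and its share was between 76.9% and 78.1% in IR+NC-LV and between 71.3% and 74.5% in IR+PR-LV.

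The 250 bases before the start of GADD45B and GADD45G were searched for known promoter motifs, since these members had lower values in the same libraries. Of the 3 members, 2 were matched in the RefSeq table of promoters (GRCh38.p14, plus strand), at chr19:2475877-2476126 for GADD45B and chr9:89604762-89605011 for GADD45G. The RefSeq start of GADD45G lies a few bases downstream of the start in the files. GADD45A is not shown. Capitals mark an E-box, which clock and MYC family factors bind, the CCAAT box, which NF-Y binds, and a TATA box.
GADD45B: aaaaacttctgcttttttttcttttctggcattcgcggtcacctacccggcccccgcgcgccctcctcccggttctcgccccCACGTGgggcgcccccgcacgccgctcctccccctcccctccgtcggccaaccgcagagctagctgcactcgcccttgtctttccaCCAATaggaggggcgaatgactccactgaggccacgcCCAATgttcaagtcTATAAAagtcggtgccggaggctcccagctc
GADD45G: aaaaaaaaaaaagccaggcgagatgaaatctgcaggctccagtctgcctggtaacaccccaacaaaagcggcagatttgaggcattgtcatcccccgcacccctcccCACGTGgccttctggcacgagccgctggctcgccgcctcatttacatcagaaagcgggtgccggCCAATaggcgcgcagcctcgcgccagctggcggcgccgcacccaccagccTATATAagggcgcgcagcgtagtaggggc
The E-box, CACGTG, began 168 bases before the start of GADD45B and 143 bases before that of GADD45G. It was present in 2228 of the 35116 RefSeq regions of this length (6.34%). The CCAAT box began 82 and 45 bases before the start of GADD45B and 79 bases before that of GADD45G, and it was present in 32.01% of all regions. The TATA box, written as TATANA and searched on the strand of the gene only, began 31 bases before the start of GADD45B and 29 bases before that of GADD45G. Of all regions, 4566 (13.003%) held it. The other motifs were searched on both strands, and those marked did not overlap one another. The GC box bound by SP1 family factors (GGGCGG) was not in these windows and was present in 42.6% of all regions. Neither was the AP-1 site (TGANTCA), which 6.57% of all regions held. The cyclic AMP response element, TGACGTCA, was likewise not in these windows, and 1.65% of all regions held it. GC content was 63.2% for GADD45B and 61.6% for GADD45G, beside a median of 58% for all regions. These matches are descriptions of the sequence, with no measure of binding.

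Genes linked to the family were then examined in lists. No gene of any list passed the threshold, with edgeR's quasi-likelihood test and adjustment by Benjamini-Hochberg over all 15340 genes tested. Without adjustment, 1614 of all genes tested (10.5%) were under 0.05, and 916 (5.97%) were under 0.05 and lower in IR+PR-LV. Of 15 tested transcription factors known to act on GADD45 genes, 0 were past the threshold, and unadjusted p-values under 0.05 were found for 5 (1 higher, 4 lower), beside 10.5% of all genes tested. Their median log2 fold change was -0.02. The exception in size was EGR1, an immediate early zinc finger factor, with 6.55, 6.16 and 9.55 CPM in the controls, against 5.05, 3.18 and 3.36 CPM in the IR+PR-LV libraries. The log2 fold change, -0.94 with a standard error of 0.23, did not pass (adjusted p = 0.224 by edgeR), and IR+NC-LV replicate 3 was again the highest library. EGR1 passed with DESeq2 (-0.94) and without a filter (-0.93). NFKB1, the precursor of the p50 subunit of NF-kB, had a log2 fold change of -0.28, JUN of AP-1 had -0.23, and FOXO3, a forkhead factor, had -0.19. NFYA, the subunit of NF-Y that contacts CCAAT, had 0.18, and ATF4, the factor of the integrated stress response, had 0.04. Of the exon bases of ATF4, 47.2% are shared with MIEF1, so its value is uncertain.

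Of 16 proteins that bind GADD45 proteins, 0 passed the threshold with edgeR or DESeq2, 4 were under 0.05 without adjustment (2 higher, 2 lower, beside 10.5% of all genes tested), and the median log2 fold change was 0.05. PCNA had 217 CPM in the controls, against 247 CPM in the IR+PR-LV libraries, a log2 fold change of 0.19, but 26.7% of its exon bases are shared with PCNA-AS1 on the other strand. NPM1, the nucleolar chaperone nucleophosmin, had 1481 and 1708 CPM (0.20). CDKN1A, which codes for p21, had 74.0 ± 2.10 CPM (SD, n = 3) in the controls, against 65.9 ± 4.68 CPM (SD, n = 3) in the IR+PR-LV libraries, a log2 fold change of -0.17, with 7.02% of its exon bases shared with DINOL on the other strand. CDK1 had 362 and 366 CPM (0.01) and CCNB1, which codes for cyclin B1, had 379 and 410 CPM (0.11). MAP3K4 had 94.2 and 92.7 CPM (-0.02). ERCC5, the XPG endonuclease of excision repair, had 3.78 and 2.37 CPM (-0.64), and as 91.7% of its exon bases are shared with the readthrough gene BIVM-ERCC5, its value is uncertain. The adjusted p-values of these 16 genes were 0.340 or higher by edgeR.

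Among 16 kinases of the p38 and JNK cascades, 0 passed the threshold and 0 were under 0.05 before adjustment by edgeR, and with DESeq2 0 passed as well. The median log2 fold change was 0.04, from -0.22 to 0.28. The largest values were those of the JNK gene MAPK10 (0.28), the p38 isoform MAPK12 (0.25) and the upstream kinase MAP3K5 (0.21), while MAPK9, another JNK gene, had 0.12. Among 15 genes of entry into mitosis and its checkpoint, 0 passed and 0 had an unadjusted p-value under 0.05 by edgeR, and 0 passed with DESeq2. Their median was 0.02. SFN, the 14-3-3 sigma protein that holds back CDK1, had 0.35, CDC25C, the phosphatase that activates CDK1, had -0.13, and FOXM1, a factor that drives mitotic genes, had 0.10. Of the exon bases of FOXM1, 12.1% are shared with ITFG2 on the other strand.

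Among 13 genes of active DNA demethylation and excision repair, 0 passed the threshold with edgeR or DESeq2, 2 had an unadjusted p-value under 0.05, both lower (beside 5.97% of all genes tested), and the median was -0.02. TET2, which oxidizes methylcytosine, had a log2 fold change of -0.25, the glycosylase TDG had 0.14, and the damage recognition protein XPA had -0.18. Of 24 other p53 targets tested, 0 passed with edgeR or DESeq2, 5 had an unadjusted p-value under 0.05, all lower (beside 5.97% of all genes tested), and the median was -0.09. For 6 of the 24, every IR+PR-LV library was below every IR+NC-LV library, beside 9.54% of all genes tested. For 0 of them every IR+PR-LV library was above, beside 7.46% of all genes tested. The counts below and above were 5 and 2 of the 15 transcription factors and 1 and 2 of the 16 binding proteins. They were 0 and 2 of the 16 kinases and 0 and 0 of the 15 mitotic genes. Of the 13 demethylation and repair genes, they were 2 and 0. The 5 p53 targets under 0.05 before adjustment were DDB2 (-0.29), ZMAT3 (-0.24), the phosphatase PPM1D (-0.23), the exonuclease AEN (-0.18) and CDKN1A (-0.17). The lowest of these log2 fold changes was smaller in size than each value of the GADD45 genes. As the same comparison chose that family, nothing was read from this contrast.

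Of 9 tested genes named for growth arrest or DNA damage inducibility outside the family, 0 passed the threshold by edgeR, 3 had an unadjusted p-value under 0.05, all lower (beside 5.97% of all genes tested), and the median was -0.15. PPP1R15A, also known as GADD34, directs a phosphatase to eIF2 alpha and is unrelated to GADD45 in sequence. It had 212, 199 and 257 CPM in the controls, against 179, 147 and 144 CPM in the IR+PR-LV libraries, or -0.50 on the log2 scale (error 0.11, adjusted p = 0.192 by edgeR). DDIT3, which codes for the stress factor CHOP and is also known as GADD153, had 60.9, 57.5 and 66.7 CPM in the controls, against 51.1, 46.2 and 49.1 CPM in the IR+PR-LV libraries. The log2 fold change, -0.34 with a standard error of 0.08, did not pass (adjusted p = 0.210 by edgeR). For 3 of the 9, every IR+PR-LV library was below every IR+NC-LV library, beside 9.54% of all genes tested. These were PPP1R15A, DDIT3 and GAS2L3, and in each of them IR+NC-LV replicate 3 was the highest library. Of the p53 targets named above, this held for ZMAT3 and PPM1D but not for DDB2, AEN and CDKN1A. Its share among all genes tested was not counted. Of the exon bases of DDIT3, 5.77% are shared with MARS1 on the other strand. PPP1R15A and DDIT3 passed with DESeq2 (-0.50 and -0.34) and without a filter (-0.49 and -0.33). GAS2L3 had -0.23 and DDIT4, an inhibitor of mTORC1, had -0.18.

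**Figure D4:**
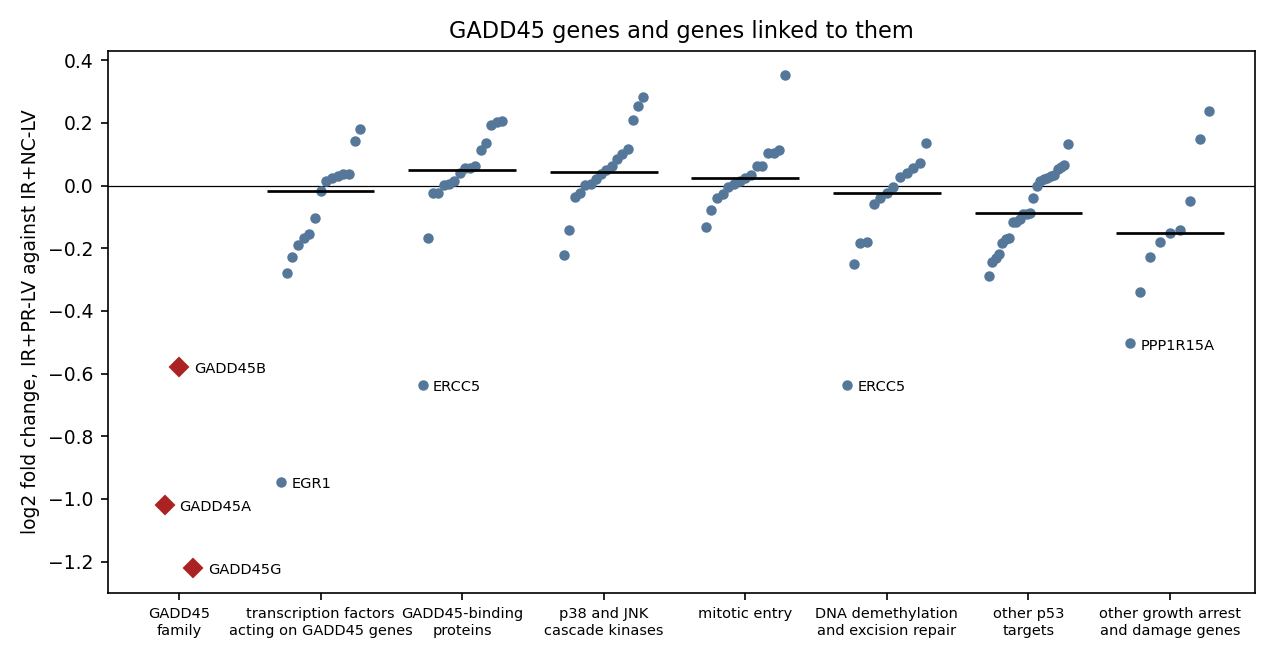
Log2 fold change in IR+PR-LV against IR+NC-LV of the 3 GADD45 genes (diamonds) and of the tested genes in each list (points), with list medians as lines. The medians lie between -0.15 and 0.05, while the GADD45 genes, a family chosen by this comparison, lie between -1.22 and -0.58.

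The genes with the most similar pattern over the 6 libraries were found by the root mean square difference in log2 CPM after centring each gene, among 10710 genes whose mean reached 5 CPM and whose name was listed once. Nearest to GADD45A were PER1 (difference 0.0947), HLF (0.0992), KLF10 (0.102), BHLHE41 (0.110) and CD22 (0.112). PER1 and BHLHE41 are repressors of the circadian clock, HLF is a clock output factor, KLF10 is a TGF-beta-induced zinc finger factor and CD22 codes for a lectin of B cells. PER1 had 27.7, 23.6 and 32.4 CPM in the controls, against 16.1, 13.1 and 13.2 CPM in the IR+PR-LV libraries. Nearest to GADD45B were IRF1 (0.0444), ZNF671 (0.0449), PPP1R15A (0.0463), NFKB2 (0.0463) and REXO5 (0.0549). IRF1 is an interferon regulatory factor, and NFKB2 codes for the p100 precursor of NF-kB. IRF1 had 57.8, 57.7 and 71.5 CPM in the controls, against 44.3, 39.8 and 40.9 CPM in the IR+PR-LV libraries. None of the 5 genes nearest to GADD45A was among the 5 nearest to GADD45B. In the order of likeness to GADD45A, GADD45B came 44th (0.230), and GADD45A came 803rd in the order of likeness to GADD45B. The measure includes the size of the difference between the groups, with log2 fold changes of -1.02 for GADD45A and -0.58 for GADD45B. These places are thus not a measure of shape alone.

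GADD45G, with a mean under 5 CPM, was compared with the same genes after the values of the other members had been seen. Nearest to it were HLF (0.0881), ATF3 (0.107), NR1D1 (0.127), INHBE (0.135) and GADD45A (0.141), with GADD45B in place 53 (0.333). ATF3 is a stress-induced factor, NR1D1 a clock repressor and INHBE an inhibin subunit. HLF was thus near to both GADD45A and GADD45G. These differences describe 6 libraries in 2 groups, and any gene with a like difference between the groups is near by this measure.

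Tested genes within 200 kb on the chromosome had log2 fold changes between -0.21 and 0.34, against -1.22 to -0.58 for the members. The family was chosen by this comparison, so nothing was read from the difference. GNG12, a G protein subunit gene 13141 bases from GADD45A, had 575 CPM in the controls, against 636 CPM in the IR+PR-LV libraries, a log2 fold change of 0.15 (adjusted p = 0.542 by edgeR). Near GADD45B, the lamin gene LMNB2 had 238 and 269 CPM, a log2 fold change of 0.18 (adjusted p = 0.502 by edgeR). The other tested neighbours of GADD45B had log2 fold changes from -0.21 (TMPRSS9) to 0.34 (GNG7). SEMA4D, a semaphorin gene near GADD45G, had 66.2 and 65.6 CPM (-0.02, adjusted p = 0.957 by edgeR). LOC105376139, which starts within the upstream region of GADD45G on the other strand, had 0.0912 and 0.118 CPM and was too low to test.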

How the data were processed

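Bulk RNA-seq was analysed for 6 libraries of irradiated HK-2 cells, 3 with the control lentivirus (IR+NC-LV) and 3 with the PRDM16 lentivirus (IR+PR-LV), grouped by their labels. The deposited files hold, for each gene, the count of reads, which the authors did not normalize, and the TPM and FPKM that the authors derived from the count, the total and the exon length in bases. The submitters' processing notes name CASAVA, featureCounts 2.0.1, DESeq2 1.16.1 and hg38. The aligner, the annotation and the strand setting are not given in the sources used here, so reads of overlapping antisense genes may be mixed.

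Counts were compared with edgeR 4.0.16 in R 4.3.3, using filterByExpr (minimum count 10, minimum total 15), TMM and the quasi-likelihood test, on all 6 libraries without covariates. P-values were adjusted by Benjamini-Hochberg over 15340 genes, with a threshold of 0.05. Levels of different genes were compared as log2(TPM + 0.01). Total counts were between 13407074 and 28540041, and intervals and limits for a count of 0 (3 counts) cover counting error only. The value of 1 gene among the cell type markers is not reported here. The fit was tried on simulated counts with the same biological coefficient of variation (0.106) for all genes. It recovered 199 of 200 changes of 1 on the log2 scale and called 8 genes without a change. In the real data the coefficients of GADD45A, GADD45B and GADD45G were 0.097, 0.098 and 0.168. Differences in spread between genes were thus not covered. Named list genes were set ones (such as PCNA, MAP3K4, CDKN1A, CDK1, CCNB1, FOXO3, ATF4, DDIT3 and PPP1R15A), those past the threshold, and up to 4 with the smallest unadjusted p-value. The members, lists and this rule were chosen with earlier results of these data known. Other settings tried were DESeq2 1.42.0 in place of edgeR, normalization by RLE or by upper quartile, no filter, a minimum of 10 counts per library, a replicate block, summed gene copies, leaving out each library, other pseudocounts and FPKM. Promoters were taken from RefSeq, and coding sequences from GENCODE release 29.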

Additional observations from a re-analysis of the deposited data

How the results depend on the processing

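The log2 fold change of GADD45A, GADD45B and GADD45G was negative under each of the 13 other settings. It ranged from -1.13 to -0.88, from -0.66 to -0.46 and from -1.34 to -1.04 in the leave-one-out fits, and moved by less than its standard error under the others. GADD45A passed the threshold in 8 of the 13, GADD45B and GADD45G in 2 each, and the cause was not tested. The number of genes past the threshold was 10, and it became 173 with DESeq2 and 342 without a filter on low counts. With 1 library left out it was between 1 (when either IR+NC-LV replicate 1 or replicate 3 of IR+PR-LV was omitted) and 28 (without IR+NC-LV replicate 2), and 16 without IR+NC-LV replicate 3. With DESeq2 and without a filter, 1 transcription factor (EGR1) and 2 growth arrest genes (PPP1R15A and DDIT3) passed, where 0 of each list had. In the other 5 lists 0 genes passed under any setting.

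The replicate number was shared between the groups, but the deviations of same-numbered libraries correlated at only -0.0088, 0.0514 and 0.0706, so the numbers were not taken to pair the libraries. With the replicate block, 3 genes passed, and GADD45A (-1.004), GADD45B (-0.57) and GADD45G (-1.21) did not. The order of member levels was the same with other pseudocounts and with FPKM. With 1 library left out, the mean difference in log2 TPM was 1.73 to 1.85 for GADD45A and GADD45B, 4.83 to 4.92 for GADD45A and GADD45G and 2.998 to 3.19 for GADD45B and GADD45G. The exact permutation test then cannot pass the threshold, as its smallest p with 5 libraries is 0.0625. With 48 to 123 counts per library, GADD45G is the member most limited by depth.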
